A study of Mus musculus with 8 samples.

Results

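Imprinted genes are genes read mainly from the copy inherited from 1 parent. A list of 37 of them by symbol, drawn up under the heading of fetal growth, was followed here in the embryonic hippocampus. The samples came from a mouse model of intrauterine growth restriction (IUGR). Members were the rows of the deposited count table whose gene name was on that list. Of the 37 listed genes, 35 had a row among the 16397 genes of the table, and Kcnq1ot1 and Phlda2 did not. Of these 35 genes, 33 reached a mean of 10 counts over the samples and were tested among 14962 genes. The 2 that did not were Slc22a18, with 1 to 12 counts per sample, and Kcnk9, with 2 to 16.

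The samples were hippocampi dissected at embryonic day 15.5 (E15.5) from wild-type C57BL/6J mice, 4 in the IUGR group and 4 in the sham group, and the methods state that both sexes were used. Dams of the IUGR group carried from E12.5 a micro-osmotic pump that delivered U-46619, a thromboxane A2 analog that raises maternal blood pressure. Sham dams received the same pump with vehicle alone, so that surgery and vehicle were common to both groups. The smaller weight gain that the authors report for this model falls later in gestation than E15.5. RNA depleted of ribosomal RNA was sequenced from stranded libraries. Total counts ran from 12919546 to 16672463 in the IUGR samples and from 11212632 to 15405748 in the sham controls. The IUGR samples carry the names T1-1, T1-3, T1-4 and T1-5 and the sham controls the names S1-4, S1-6, S3-1 and S3-4. All IUGR samples share the prefix T1, and the sham controls carry S1 or S3. No source used here says whether a prefix marks a litter. If it does, all IUGR samples come from the same litter, and treatment and litter cannot be told apart. The p-values thus measure the spread between these samples only.

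Imprinting rests on DNA methylation laid down in the egg or the sperm and kept after fertilization at control regions, each of which sets the parental expression of a cluster of neighbouring genes. Paternally expressed genes such as Peg3, Mest and Dlk1 mostly promote the growth of the fetus, and maternally expressed genes such as H19, Cdkn1c and Grb10 mostly hold it back, a pattern often described as parental conflict over maternal resources. Many imprinted genes are strongly expressed in the developing brain, and several (Grb10, Ube3a) change their parental bias in neurons. The counts hold no allele information, so the parental classes used below are background from the mouse literature and not measurements.

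Several measures that were not imprinted genes differed between the groups. Xist, the RNA made from the inactive X chromosome of females, lay between 913 and 1482 CPM (counts scaled to library size) in T1-3, T1-4, T1-5 and S1-6 and between 1.92 and 5.6 CPM in the other samples, where the Y-linked Ddx3y lay between 110 and 203 CPM. Samples with Xist above 100 CPM thus made up 3 of 4 in the IUGR group and 1 of 4 in the sham group, and the labels give no sex for single samples. All 15 tested markers of the choroid plexus, the epithelium that makes cerebrospinal fluid, had lower means in IUGR (median log2 fold change -3.05), 3 of them past the thresholds used here for a call (adjusted p no higher than 0.05 and a log2 fold change at or beyond 1 in either direction), and their summed level was 54.9 to 1276 CPM in IUGR against 5305 to 11496 CPM in sham. Of 13 neuron markers, 12 had higher means in IUGR (median log2 fold change 0.61, none past the adjusted test, 7 at an unadjusted p under 0.05), and their mean log2 CPM was 6.83 to 7.40 against 6.28 to 6.76. Other marker lists also had mostly higher means in IUGR, with no gene past the adjusted test: 11 of 12 of endothelium and pericytes (median log2 fold change 0.51, 4 at an unadjusted p under 0.05), 8 of 8 of erythroid cells (0.47), 9 of 9 of microglia (0.25), 8 of 10 of subpallial interneurons (0.20) and 10 of 11 of fibroblasts (1.15). Fibroblast markers spread widely within IUGR, from a summed 77.6 CPM in T1-4 to 2765 CPM in T1-3, against 320 to 614 CPM in sham. Markers of the dorsal pallium and hippocampus, which were present in all samples, had lower means for 9 of 10 genes (median -0.28), those of radial glia for 6 of 10 (-0.12) and those of thalamus and hypothalamus for 4 of 5 (-0.43). The part of these lists in the members' levels was not tested. In bulk tissue, fewer cells of a type and less RNA per cell cannot be told apart.

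The imprinted genes spanned more than 4 orders of magnitude on a scale of CPM per kb of annotated exon. Nnat, which encodes the small membrane protein neuronatin, had the highest sham mean at 825 ± 159 CPM per kb (SD, n = 4), followed by the noncoding RNA H19 at 175 ± 71.1. Grb10, Mest, Cdkn1c, Cd81 and Gnas lay close together between 72.8 and 90.4 CPM per kb, with SDs of 3.68 to 20.3, so their order in sham was within the spread between samples. Ndn stood eighth at 52.2 ± 12.3 CPM per kb in sham and had a mean of 119 ± 23.9 in IUGR, above all but Nnat and H19. At the low end were Usp29 at 1.02 ± 0.155, Ddc at 0.73 ± 0.313, Zim1 at 0.47 ± 0.155, Slc22a18 at 0.26 ± 0.208, Rtl1 at 0.17 ± 0.101 and Kcnk9 at 0.0399 ± 0.00955 CPM per kb.

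**Figure D1:**
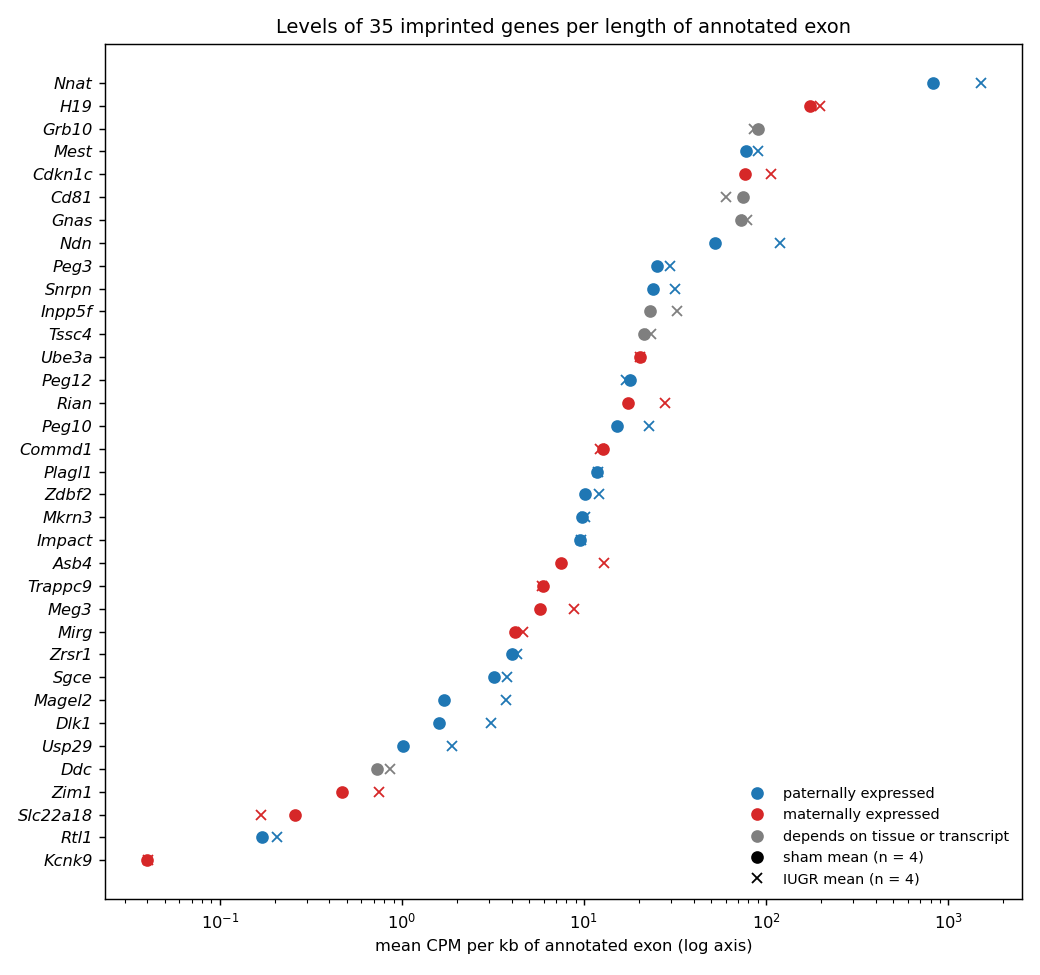
Mean level of the 35 imprinted genes of the table in sham controls (circles, n = 4) and IUGR (crosses, n = 4), in CPM per kb of annotated exon on a log axis, ordered by the sham mean and coloured by parental class. In sham, paternally expressed genes run from Nnat at 825 to Rtl1 at 0.17 CPM per kb and maternally expressed genes from H19 at 175 to Kcnk9 at 0.0399.

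The comparison of IUGR with sham hippocampi asks which imprinted genes differ after infusion of the thromboxane A2 analog into the dam. Ndn, which encodes the neuronal growth suppressor necdin, was the only member to pass both thresholds (edgeR quasi-likelihood test, Benjamini-Hochberg over all tested genes). Usp29 passed the adjusted p with a smaller fold change. This count of 1 of 33 members (3.03%) stands beside 1.28% of all tested genes called, and 2 of 33 (6.06%) by adjusted p alone beside 1.36%. At an unadjusted p under 0.05, 8 members were higher in IUGR (24.2%, against 5.21% of all tested genes) and none was lower (against 6.01%). Cd81 was lower at an unadjusted p under 0.05 in 5 of 20 alternative fits, with log2 fold changes of -0.45 to -0.33. In 4 members the lowest IUGR sample was above the highest sham sample (12.1%, against 2.63% of tested genes), and in none did all IUGR samples lie below all sham samples (against 4.41%). The fold change was above 0 for 27 of 33 members, 81.8% against 51.6% of all tested genes, and the median log2 fold change was 0.24 for the members and 0.01 for all genes.

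**Figure D2:**
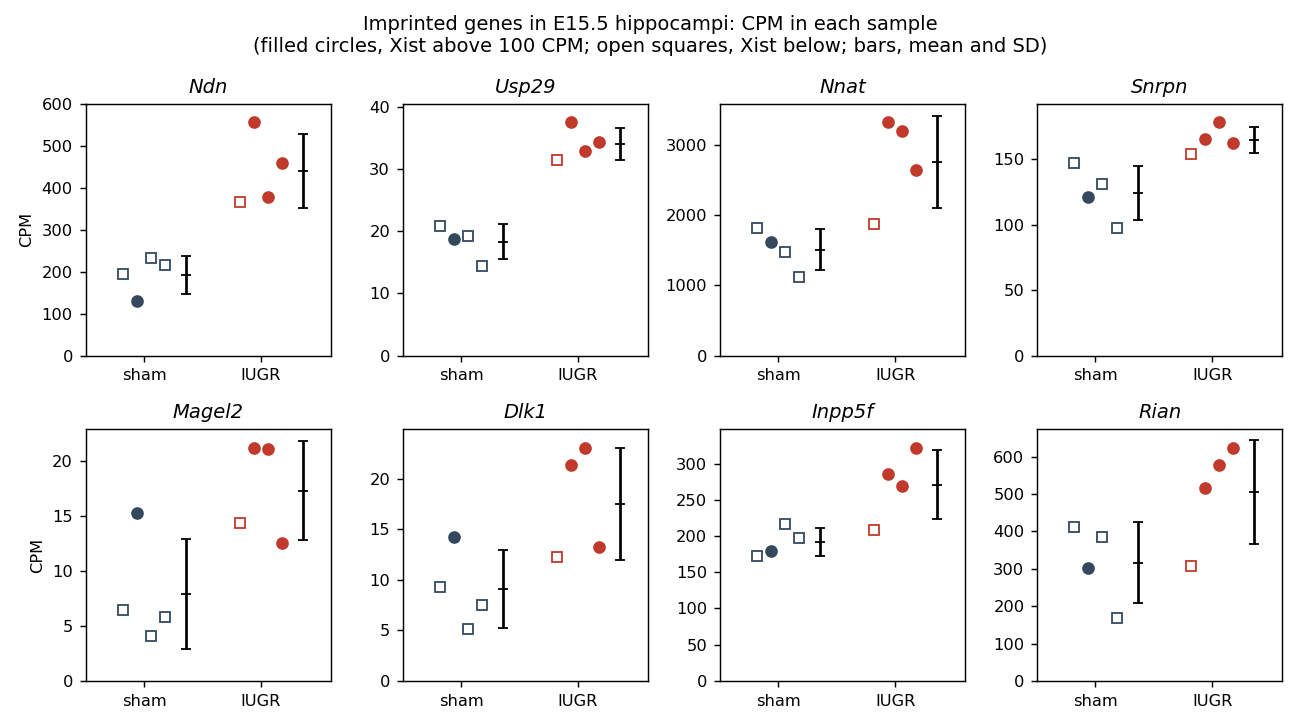
CPM of the 8 imprinted genes at an unadjusted p under 0.05 in each sham and IUGR sample, with the group mean and SD as bars, each axis starting at 0. Filled circles are samples with Xist above 100 CPM and open squares the others; Ndn, Usp29, Nnat and Snrpn show no overlap between the groups, and sham S1-6 lies among the IUGR samples for Magel2 and Dlk1.

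The Snrpn-Ube3a cluster on chromosome 7, the mouse counterpart of the region behind Prader-Willi and Angelman syndromes, held the largest and some of the smallest differences. Ndn (chr7:62346569-62350262, plus strand, GRCm38) was measured at 366, 556, 377 and 460 CPM in IUGR samples T1-1, T1-3, T1-4 and T1-5 and at 194, 129, 233 and 215 CPM in sham controls S1-4, S1-6, S3-1 and S3-4. Every IUGR sample was thus above every sham control, with T1-3 highest and S1-6 lowest. The log2 fold change was 1.19 ± 0.21 (SE), a ratio of 2.28, with adjusted p = 0.0258 by edgeR. Leaving out 1 sample at a time gave log2 fold changes of 1.04 to 1.29 and adjusted p-values of 0.0356 to 0.0898, and the call was lost without T1-1 (adjusted p = 0.0527), S3-4 (0.0669) or S1-4 (0.0898).

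Magel2, a neighbour of Ndn that encodes a related MAGE-family protein acting with ubiquitin ligases, had a similar fold change and a far wider spread. It was measured at 14.37, 21.19, 21.11 and 12.45 CPM in IUGR samples T1-1, T1-3, T1-4 and T1-5 and at 6.491, 15.26, 4.051 and 5.808 CPM in sham S1-4, S1-6, S3-1 and S3-4. The groups overlapped only through S1-6, which was above T1-1 and T1-5. The log2 fold change was 1.13 ± 0.38 with adjusted p = 0.239 by edgeR, and without S1-6 it was 1.67 with adjusted p = 0.0335, the lowest over all alternative fits, which reached 0.935.

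Snrpn, which encodes a protein of the neuronal splicing machinery, differed less but without overlap. It was measured at 154, 165, 178 and 162 CPM in IUGR T1-1, T1-3, T1-4 and T1-5 and at 147, 121, 131 and 97.7 CPM in sham S1-4, S1-6, S3-1 and S3-4. The log2 fold change was 0.41 ± 0.14 with adjusted p = 0.232 by edgeR, so the difference did not pass the test over all genes. The 3 other members of the cluster showed no such separation. Mkrn3, a ring-finger protein known from the timing of puberty, had means of 25.7 and 24.9 CPM in IUGR and sham (log2 fold change 0.05 ± 0.19), Peg12, a relative of the Wnt pathway's Frat genes, had 45 and 47 CPM (-0.06 ± 0.17), and the maternally expressed ubiquitin ligase Ube3a had 416 and 418 CPM (-0.01 ± 0.15).

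The ratio of genes of 1 cluster within a sample shows whether they differed together. Ndn, Magel2, Mkrn3 and Peg12 are neighbours, while Snrpn and Ube3a lie farther off in the cluster (Ube3a at chr7:59228750-59311536). Ndn over Mkrn3 was 13, 26.3, 15.3 and 15.8 in IUGR T1-1, T1-3, T1-4 and T1-5 and 6.66, 6.64, 7.7 and 10.4 in sham S1-4, S1-6, S3-1 and S3-4. Ndn over Ube3a was 0.821 to 1.37 in IUGR and 0.301 to 0.566 in sham, and Ndn over Peg12 was 6.74 to 14.8 against 2.63 to 5.25. In each of these 3 ratios every IUGR sample was above every sham control. Mkrn3, Peg12 and Ube3a had log2 fold changes of only 0.05, -0.06 and -0.01, so these ratios mostly repeat the separation of Ndn itself. Ndn over Magel2 overlapped, at 17.8 to 36.9 in IUGR and 8.48 to 57.5 in sham, and Snrpn over Ube3a overlapped at 0.346 to 0.464 against 0.203 to 0.429. The ratios are a description and were not tested.

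**Figure D3:**
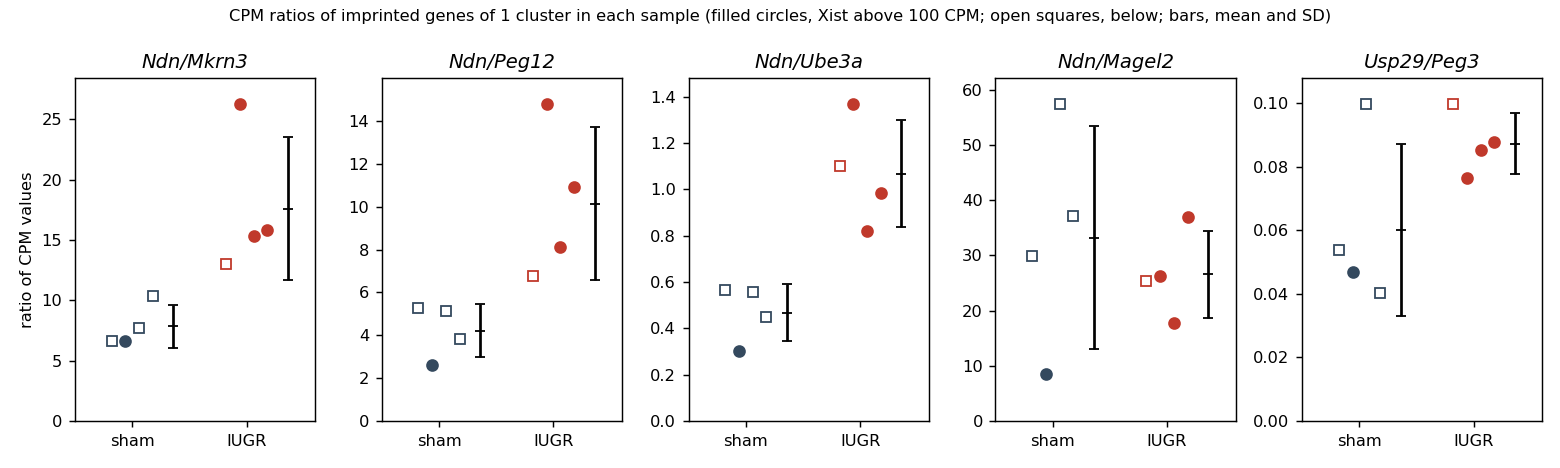
Ratio of CPM values of imprinted genes of 1 cluster in each sham and IUGR sample (filled circles, Xist above 100 CPM; open squares, below), with the group mean and SD as bars and each axis starting at 0. Ndn over Mkrn3, Peg12 and Ube3a separates the groups, while Ndn over Magel2 and Usp29 over Peg3 overlap, the last through sham S3-1 at 0.0996.

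The promoter of the called gene is shown because imprinted promoters are read through methylation of CG dinucleotides. The RefSeq window of 250 bases before to 50 bases after the transcription start of Ndn (GRCm38.p6, chr7:62348027-62348326, plus strand) holds 11 CG dinucleotides, written in capitals, most of them in its last part near the start. This RefSeq start lies inside the span of Ndn given above, which comes from GENCODE, so the annotations place the start differently. The level of Ndn per kb rests on the GENCODE exon length of 3694 bases.

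Ndn: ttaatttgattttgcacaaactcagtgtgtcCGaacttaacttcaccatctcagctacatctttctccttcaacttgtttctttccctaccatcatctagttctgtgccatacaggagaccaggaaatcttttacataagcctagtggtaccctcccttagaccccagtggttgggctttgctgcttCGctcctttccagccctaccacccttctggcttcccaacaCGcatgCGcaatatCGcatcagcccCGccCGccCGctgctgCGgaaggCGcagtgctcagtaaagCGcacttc

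The Peg3 cluster, near the start of chromosome 7, joins Peg3, a zinc-finger gene long studied for fetal growth and maternal behaviour, Usp29, which encodes a deubiquitinating enzyme, and the maternally expressed zinc-finger gene Zim1. Usp29 (chr7:6730578-6967219, plus strand) was measured at 31.6, 37.6, 33 and 34.4 CPM in IUGR T1-1, T1-3, T1-4 and T1-5 and at 20.9, 18.8, 19.3 and 14.4 CPM in sham S1-4, S1-6, S3-1 and S3-4. The IUGR samples lay within a narrow range well above the highest sham control. The log2 fold change was 0.89 ± 0.15 with adjusted p = 0.0249 by edgeR, below the fold threshold. With 1 sample left out at a time it was 0.80 to 0.96 with adjusted p-values of 0.0357 to 0.0674, and it kept an adjusted p under 0.05 in 3 of 8 such fits, being lost without T1-1, T1-4, S1-6, S3-4 or S1-4.

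Usp29 and Peg3 start 147 bases apart on opposite strands, and their promoter windows share 263 of 300 bases. Peg3 ran from 317 to 493 CPM in IUGR samples against 194 to 402 CPM in sham, with a log2 fold change of 0.24 ± 0.23 and adjusted p = 0.98 by edgeR. The ratio of Usp29 to Peg3 was 0.0998, 0.0763, 0.0853 and 0.0878 in IUGR T1-1, T1-3, T1-4 and T1-5 and 0.0537, 0.0468, 0.0996 and 0.0401 in sham S1-4, S1-6, S3-1 and S3-4. Only S3-1, where Peg3 was at its lowest of 194 CPM, reached the IUGR range. Zim1, at 33 to 146 counts per sample, had means of 6.09 and 3.8 CPM in IUGR and sham (log2 fold change 0.68 ± 0.32, adjusted p = 0.492 by edgeR). The window at the shared start, written from the side of Usp29 (GRCm38.p6, chr7:6730333-6730632, plus strand), holds 17 CG dinucleotides in capitals.

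Usp29: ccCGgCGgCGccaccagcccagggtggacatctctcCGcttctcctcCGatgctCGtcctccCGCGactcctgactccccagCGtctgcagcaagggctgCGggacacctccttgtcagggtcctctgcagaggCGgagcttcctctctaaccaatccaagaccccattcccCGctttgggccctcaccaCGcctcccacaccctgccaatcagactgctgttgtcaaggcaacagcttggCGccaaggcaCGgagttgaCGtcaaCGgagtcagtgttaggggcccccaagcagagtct

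The Dlk1-Meg3 cluster on chromosome 12 pairs the paternally expressed Dlk1, a Notch-related membrane protein that regulates growth and progenitor cells, with maternally expressed noncoding RNAs (Meg3, Rian, Mirg) that carry microRNAs and small nucleolar RNAs. All 5 members had fold changes above 0, and none passed the adjusted test. Dlk1 was measured at 12.3, 21.4, 23.1 and 13.3 CPM in IUGR T1-1, T1-3, T1-4 and T1-5 and at 9.35, 14.3, 5.19 and 7.5 CPM in sham S1-4, S1-6, S3-1 and S3-4. As for Magel2, S1-6 was the one sham control inside the IUGR range. The log2 fold change was 0.95 ± 0.33 with adjusted p = 0.248 by edgeR.

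Rian was measured at 308, 516, 577 and 624 CPM in IUGR T1-1, T1-3, T1-4 and T1-5 and at 411, 301, 386 and 169 CPM in sham S1-4, S1-6, S3-1 and S3-4. Here T1-1 lay among the sham controls and the other IUGR samples above them (log2 fold change 0.68 ± 0.29, adjusted p = 0.406 by edgeR). Meg3 had means of 160 and 103 CPM in IUGR and sham (0.63 ± 0.29, adjusted p = 0.47 by edgeR), and Mirg, farther along the same strand, 33.6 and 30.3 CPM (0.15 ± 0.22). Rian over Meg3 was 2.87 to 3.77 in IUGR and 2.24 to 3.86 in sham. Dlk1 over Meg3 was 0.0803 to 0.124 against 0.0518 to 0.141, and Mirg over Meg3 was 0.182 to 0.252 against 0.207 to 0.382. Each of these ratios overlapped between the groups. Rtl1, a retrotransposon-derived gene needed in the placenta and read antisense to this region, had only 6 to 24 counts per sample, and its log2 fold change of 0.30 ± 0.49 was smaller than its error.

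The Peg10 cluster on chromosome 6 holds Peg10, another retrotransposon-derived gene essential in the placenta, Sgce, which encodes a sarcoglycan linked to myoclonus dystonia, and the maternally expressed Asb4, which encodes a subunit of a ubiquitin ligase. Peg10 ran from 103 to 197 CPM in IUGR samples and from 41.4 to 183 CPM in sham controls, Asb4 at 31.8 to 74.1 against 11.4 to 46.7 CPM and Sgce at 28.1 to 46.3 against 28.9 to 38 CPM. The log2 fold changes were 0.59 ± 0.38, 0.79 ± 0.39 and 0.23 ± 0.17, with adjusted p-values of 0.754, 0.54 and 0.864 by edgeR. Peg10 over Asb4, of opposite parental class, was 2.66 to 3.52 in IUGR and 2.81 to 3.92 in sham. Peg10 over Sgce, both paternally expressed, varied more, at 2.86 to 4.64 in IUGR and 1.14 to 5.44 in sham.

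On distal chromosome 7, the growth-restraining genes did not pass the test. H19, a maternally expressed noncoding RNA, was at 366, 747, 308 and 519 CPM in IUGR T1-1, T1-3, T1-4 and T1-5 and at 270 to 671 CPM in sham (log2 fold change 0.17 ± 0.33). Its order within IUGR was that of the fibroblast markers, whose mean log2 CPM was 3.69, 6.81, 1.83 and 5.05 in the same samples, and of its neighbour Igf2, the paternally expressed growth factor, at 81.9, 376, 35.3 and 194 CPM. In sham S1-4, S1-6, S3-1 and S3-4 the orders differed, with H19 at 671, 442, 342 and 270 CPM, fibroblast markers at 4.29, 4.75, 4.28 and 3.48 and Igf2 at 129, 198, 79.4 and 117 CPM. The part of fibroblast RNA in these levels was not tested. Cdkn1c, which encodes the cell cycle inhibitor p57, was at 177, 378, 153 and 163 CPM in IUGR and at 147 to 164 CPM in sham, with a log2 fold change of 0.48 ± 0.27 that was 0.07 without T1-3.

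Farther along this region, Cd81 and Tssc4 are known as imprinted mainly in the placenta. Cd81, which encodes a tetraspanin, had the lowest fold change of the tested members, with 138 to 214 CPM against 197 to 234 CPM in sham (-0.31 ± 0.14, adjusted p = 0.484 by edgeR). Tssc4, which encodes a splicing-related protein, had means of 42.8 and 39.4 CPM (0.12 ± 0.13). Slc22a18, which encodes a membrane transporter, had a mean of 5 counts per sample, and in an edgeR fit with no filter its log2 fold change was -0.52 ± 0.74.

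On chromosome 11, Grb10, which encodes an adaptor that damps insulin and IGF signalling, had means of 777 and 821 CPM in IUGR and sham (log2 fold change -0.08 ± 0.16). Its neighbour Ddc, which encodes the enzyme that makes dopamine and serotonin from their precursors, was at 26 to 71 counts per sample (0.24 ± 0.34). Zrsr1, an intronless gene that lies inside Commd1 on the opposite strand, had 19.2 and 18 CPM (0.09 ± 0.18), and Commd1, which encodes a regulator of copper and protein trafficking, had 72.5 and 75.6 CPM (-0.06 ± 0.17). Trappc9 on chromosome 15, which encodes a subunit of a vesicle-tethering complex, had 46.7 and 47.4 CPM (-0.02 ± 0.18). Its neighbour Kcnk9, which encodes a potassium channel, averaged 6.88 counts per sample (0.01 ± 0.58 in the fit with no filter).

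Of the imprinted genes that stand alone, Nnat, which lies in an intron of Blcap on the opposite strand, was the clearest. It was measured at 1877, 3324, 3200 and 2644 CPM in IUGR T1-1, T1-3, T1-4 and T1-5 and at 1814, 1618, 1480 and 1126 CPM in sham S1-4, S1-6, S3-1 and S3-4. The groups did not overlap, although T1-1 lay just above S1-4. The log2 fold change was 0.87 ± 0.22 with adjusted p = 0.095 by edgeR, so it missed the threshold there, and DESeq2 gave an adjusted p of 0.00409 in a range of 0.00409 to 0.59 over all alternative fits. Blcap, which encodes an apoptosis-related protein, lay between 82.4 and 103 CPM in IUGR against 57.4 to 79.8 CPM in sham (0.44 ± 0.14, adjusted p = 0.213 by edgeR), again without overlap. The libraries keep strand, but no source used here states the strand setting of the counting, so reads of the 2 genes may not be fully separated. The same limit holds for Mest, Gnas, Zrsr1, Commd1, Tssc4 and Cd81, which overlap a counted gene on the opposite strand. Inpp5f, Rian, Meg3, Mirg, H19, Impact and Mest overlap a counted gene on their own strand (Gm16044 for Inpp5f and Gm26945 for Rian), and how shared reads were assigned is not stated.

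The Nnat window (GRCm38.p6, chr2:157559828-157560127, plus strand) has 17 CG dinucleotides in capitals and 1 match to TGCCGC, the core letters bound by the imprint-protecting protein ZFP57, on the minus strand at base 28 from the start. This motif itself holds a CG.

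Nnat: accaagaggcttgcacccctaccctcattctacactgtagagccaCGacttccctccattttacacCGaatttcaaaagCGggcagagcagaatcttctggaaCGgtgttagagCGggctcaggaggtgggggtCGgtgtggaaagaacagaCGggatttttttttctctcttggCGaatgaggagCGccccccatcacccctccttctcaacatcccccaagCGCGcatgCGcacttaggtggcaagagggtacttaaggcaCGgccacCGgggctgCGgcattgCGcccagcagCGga

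Searched on both strands of the RefSeq windows of 300 bases, TGCCGC was found for 9 of 27 members that had a window (33.3%) and for 3527 of 27025 genes (13.1%). The members with a match were the paternally expressed Mest, Nnat, Plagl1, Snrpn and Zdbf2, the maternally expressed Commd1, Meg3 and Zim1, and Grb10. The median number of CG dinucleotides was 13 over 41 member windows and 7 over 32851 windows of all genes, and 94.6% of all windows held at least 1. Ndn and Usp29 had no match in these windows, while the match groups hold both Nnat and members such as Plagl1 with a log2 fold change of 0.01.

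Inpp5f, which encodes an inositol phosphatase and is imprinted in the brain for 1 transcript only, was measured at 208, 285, 269 and 322 CPM in IUGR T1-1, T1-3, T1-4 and T1-5 and at 173, 180, 216 and 197 CPM in sham S1-4, S1-6, S3-1 and S3-4. T1-1 lay below S3-1 and the other IUGR samples above all sham controls (log2 fold change 0.50 ± 0.15, adjusted p = 0.169 by edgeR). The table gives 1 row for the whole gene, so the imprinted transcript was not measured apart. The remaining single genes had log2 fold changes of 0.01 to 0.26, none past the test. Zdbf2, a zinc-finger gene needed for early postnatal growth, had means of 153 and 128 CPM (0.26 ± 0.20), Mest, of the hydrolase fold, 356 and 304 CPM (0.23 ± 0.20), and Gnas, which encodes the stimulatory G protein alpha subunit, 875 and 814 CPM (0.10 ± 0.19). Impact, which encodes an inhibitor of the GCN2 stress kinase, and Plagl1, which encodes a zinc-finger regulator of other imprinted genes, had 0.02 ± 0.18 and 0.01 ± 0.28.

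**Figure D4:**
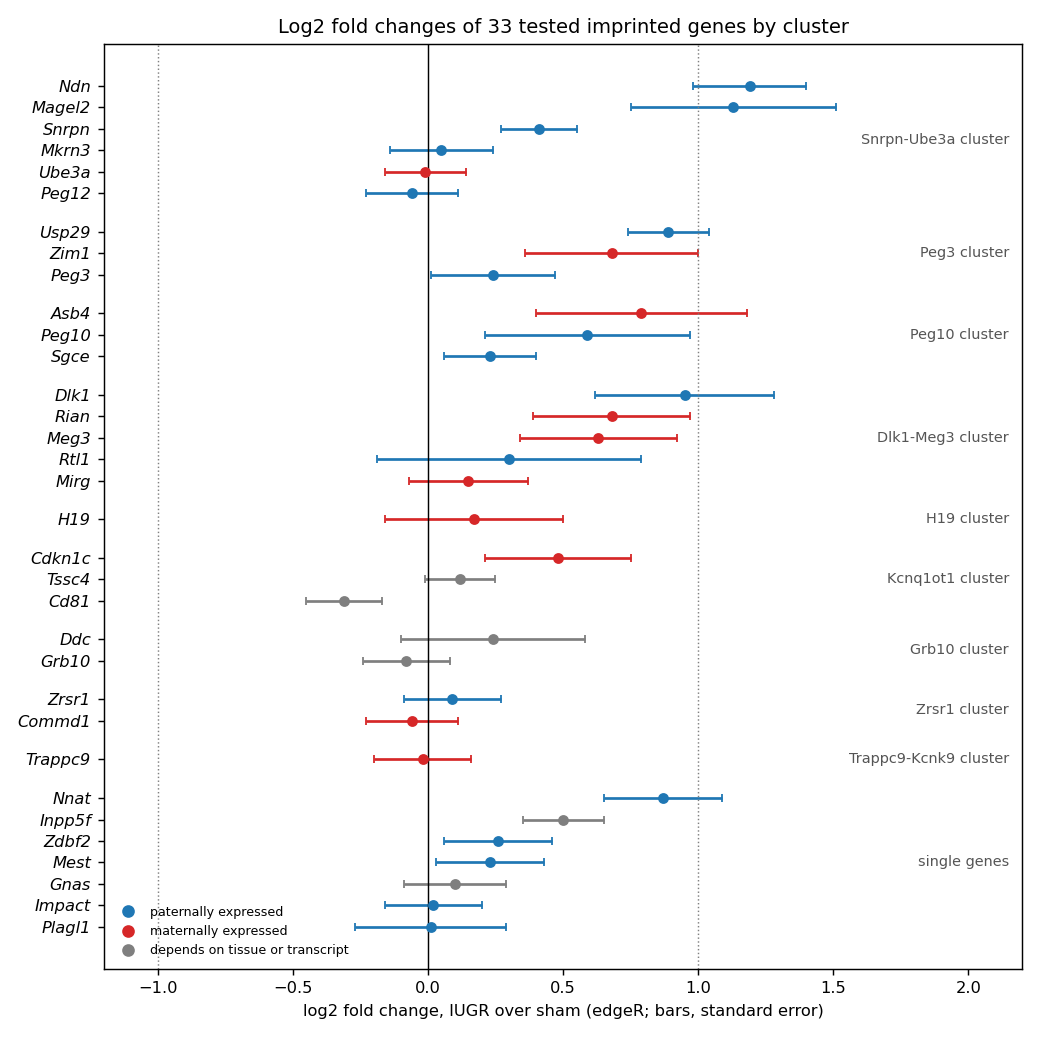
Log2 fold change of IUGR over sham with its standard error for the 33 tested imprinted genes, grouped by cluster and coloured by parental class, with dotted lines at -1 and 1. Most points lie right of 0, only Ndn and Magel2 lie beyond 1, and each cluster with several members mixes larger and smaller values.

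The contrast of the parental classes showed no opposite direction of the medians. The 17 tested paternally expressed members had a median of 0.26 on the log2 scale (range -0.06 to 1.19) and the 10 maternally expressed members one of 0.33 (-0.06 to 0.79), while the 6 members whose parental bias depends on tissue or transcript had one of 0.11. The maternal median was 0.13 without T1-3 and the paternal median 0.16 without S3-1 and 0.40 without S1-6. Fold changes were above 0 for 16 of 17 paternally expressed members, Peg12 being the exception, and for 7 of 10 maternally expressed members, with Ube3a, Commd1 and Trappc9 below 0. Ube3a was counted as maternally expressed although its parental bias changes in neurons, and no alternative moved it to the mixed class. The maternal count and median depend on this assignment. Of the 8 members at an unadjusted p under 0.05, 6 were paternally expressed, 1 was maternally expressed (Rian) and 1 was Inpp5f.

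In each sample, the mean log2 CPM of the paternally expressed members was 5.97, 6.25, 6.24 and 6.16 in IUGR T1-1, T1-3, T1-4 and T1-5 and 5.79, 5.92, 5.45 and 5.59 in sham S1-4, S1-6, S3-1 and S3-4. The groups did not overlap for this mean, although T1-1 at 5.97 was just above S1-6 at 5.92. The maternally expressed members were at 6.27 to 6.84 in IUGR and 5.98 to 6.49 in sham. The difference of the paternal and maternal means was -0.60 to -0.30 in IUGR and -0.77 to -0.39 in sham, so the balance between the classes overlapped between the groups. Individual samples weighed on these levels. T1-3 was the highest of all samples for 11 of 33 members, against 17.8% of all tested genes, and S3-1 and S3-4 were each the lowest for 10 of 33, against 18.1% and 11.2%.

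**Figure D5:**
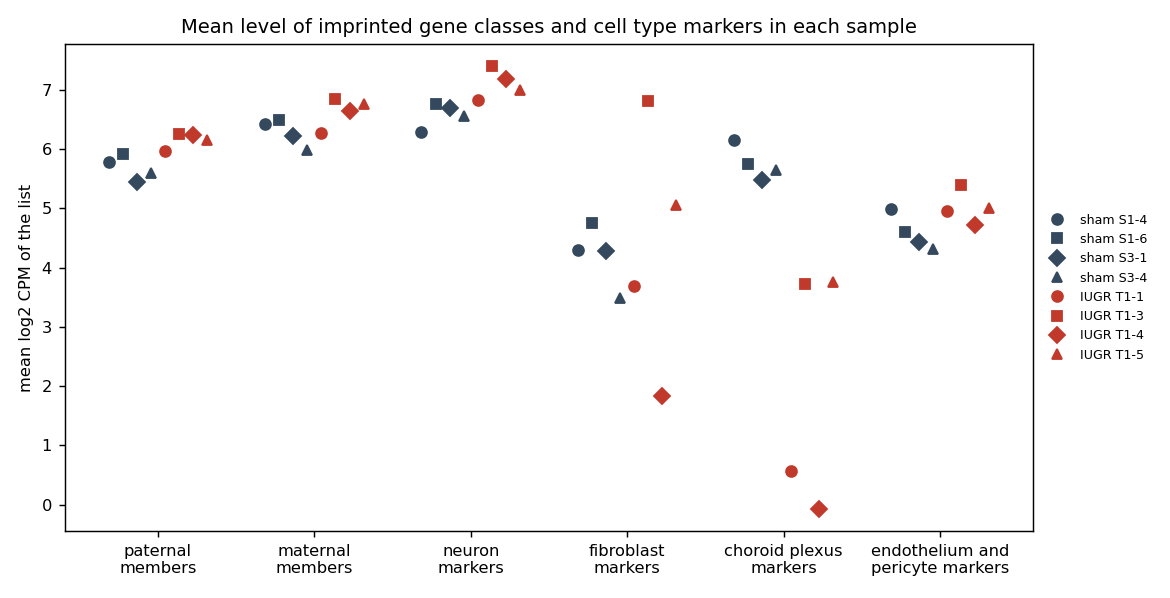
Mean log2 CPM of the paternally and maternally expressed members and of 4 cell type marker lists in each sham (dark) and IUGR (red) sample, 1 symbol per sample. The imprinted classes and neuron markers are shifted upward in most IUGR samples, choroid plexus markers are at -0.08 to 3.75 in IUGR against 5.48 to 6.15 in sham, and fibroblast markers run from 1.83 in T1-4 to 6.81 in T1-3.

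Xist and the neuron markers differed between the same groups, and the members were set against each. Among samples with Xist above 100 CPM, Ndn was at 377 to 556 CPM in 3 IUGR samples against 129 CPM in S1-6, and among the others at 366 CPM in T1-1 against 194 to 233 CPM in 3 sham controls. Usp29 was likewise at 33 to 37.6 against 18.8 CPM and at 31.6 against 14.4 to 20.9 CPM. Peg10 was at 132 to 197 against 183 CPM and at 103 against 41.4 to 95.5 CPM, so S1-6 lay inside the IUGR range. With log2 CPM of Xist as a term in the edgeR fit, Ndn had a log2 fold change of 1.34 ± 0.27 (adjusted p = 0.107), Usp29 of 0.85 ± 0.19 (adjusted p = 0.141), Nnat of 0.64 ± 0.25, Magel2 of 0.79 ± 0.30 and Dlk1 of 0.56 ± 0.28. No gene of the whole table was called in that fit by edgeR, with 1042 genes and 5 members at an unadjusted p under 0.05, and the median log2 fold changes were 0.13 for the paternally and 0.15 for the maternally expressed members. The part of sex in the differences beyond these values was not tested.

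Measured against the mean log2 CPM of the neuron markers in the same sample, Ndn was still higher in IUGR, at 1.37 to 1.86 against 0.26 to 1.33 in sham, a difference of 0.67. Usp29 overlapped on that scale (-2.17 to -1.84 against -2.70 to -1.88), as did Nnat (4.04 to 4.46 against 3.58 to 4.55) and Snrpn (-0.04 to 0.44 against 0.05 to 0.93). The neuron marker mean was itself 0.53 higher in IUGR, which lowers every gene by that amount on this scale. Of all tested genes 0.201% were then higher and 17.6% lower without overlap, beside 1 (3.03%) and 2 (6.06%) of 33 members, so the values are a description only.

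A wider list of 35 imprinted genes outside the members gave 29 tested genes, 20 with fold changes above 0 and 9 below, a median log2 fold change of 0.14 and none called by edgeR, with 5 higher and 1 lower at an unadjusted p under 0.05, beside 5.21% and 6.01% of all tested genes. The 5 were Blcap, Calcr, Nap1l5, Gatm and Th, and the lower gene was Pon3, at 3.5 CPM against 7.39 CPM (log2 fold change -1.07 ± 0.37, adjusted p = 0.257 by edgeR). Nap1l5, a brain-expressed paternal gene, was at 15.9, 33.3, 30 and 27.5 CPM in IUGR T1-1, T1-3, T1-4 and T1-5 and at 10 to 17 CPM in sham (log2 fold change 0.86 ± 0.25, adjusted p = 0.158 by edgeR). The receptor Igf2r, which clears IGF2, had means of 188 and 218 CPM (-0.21 ± 0.17). The 7 factors that protect methylation imprints after fertilization, among them Zfp57, Trim28 and Dnmt1, had a median of 0.04 on the same scale, and none was at an unadjusted p under 0.05.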

How the data were processed

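Hippocampi of 4 IUGR and 4 sham embryos were analysed from the count table that the authors deposited: whole, unnormalized read counts per gene from stranded total RNA libraries, aligned to mm10 with Novoalign 2.8 per the submitters' processing notes. The counting tool, its strand setting and the annotation are not given in the sources used here. Genes averaging 10 or more counts were tested with edgeR 4.0.16 (TMM, quasi-likelihood test, no covariates, R 4.3.3), and p-values were adjusted by Benjamini-Hochberg over 14962 genes. A gene was called when its adjusted p was no higher than 0.05 and its log2 fold change reached 1 in either direction. CPM values use TMM library sizes, and log2 CPM a prior count of 2. Samples of a group differed by 27.2 to 71.8 chi-square per degree of freedom over 12 pairs, so none is a duplicate. Coordinates and exon lengths come from GENCODE M21 (GRCm38), which matched 16124 of 16397 identifiers, and the Snrpn row has another symbol (Gm38393) there. Sequences come from RefSeq.

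Every listed member in the table is named. Members with groups that do not overlap, an unadjusted p under 0.05 or a log2 fold change beyond 1 are given with every sample. The members, classes and marker lists were chosen with earlier results of these data known. Alternatives were DESeq2 1.42.0, limma-voom (limma 3.58.1), other normalizations and filters, leaving out each sample, and either sham name prefix alone. A fit without T1-3 and T1-4 and a fit with Xist as a term were added after seeing the data. The edgeR code was tested on simulated data.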

Additional observations from a re-analysis of the deposited data

Results flagged for a closer look

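In 4 of 70 groups of 4 samples, 1 sample stood apart from the other 3 by more than Dixon's critical value for the gap over the range. Chance flags about 1 in 20 groups. Cdkn1c was at 378 CPM in IUGR sample T1-3, the sample highest in fibroblast markers, against 153 to 177 CPM in the other IUGR samples. Zdbf2 was at 127 CPM in IUGR sample T1-1, the only IUGR sample low in Xist, against 160 to 163 CPM in the others. Sham sample S3-1 was apart for Grb10, at 609 CPM against 880 to 898 CPM, and for Commd1, at 95.2 CPM against 66.2 to 70.5 CPM. The parts of fibroblast RNA and of sex in these values were not tested.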

How the results depend on the processing

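The 1 called member, Ndn, was also called with DESeq2, limma-voom, both other normalizations and all filters. The count was 0 with sham controls of prefix S1 only, 0 with prefix S3 only, 0 without T1-3 and T1-4 (0.174% of all tested genes called), 0 with the Xist term, 2 by adjusted p alone (1.36%) and 0 to 2 without 1 replicate, when 0.294% to 1.87% of all genes were called. In the fits with 1 sham prefix, 0 (prefix S1, 1113 genes at an unadjusted p under 0.05) and 2 genes were called by edgeR in the whole table. Members at an unadjusted p under 0.05 numbered 4 with prefix S1 only (12.1%, against 7.44% of all tested genes), 10 with prefix S3 only (30.3% against 9.55%), 4 without T1-3 and T1-4 (12.1% against 8.03%), 5 with the Xist term (against 6.96%) and 7 to 12 without 1 replicate, when 8.21% to 11.7% of all genes were. Members without overlap numbered 8 with prefix S1 only (24.2%, against 16.1% of all tested genes), 11 with prefix S3 only (33.3% against 18.1%), 5 without T1-3 and T1-4 (15.2% against 14.4%) and 4 to 8 without 1 replicate, when 8.37% to 11% of all genes did not overlap. They include 1 lower member each with prefix S1 only, without T1-3 and T1-4, without T1-3 and without S3-1. With fewer samples a lack of overlap is easier to reach, so these counts are not comparable with the 4 of 33 members (12.1%, against 7.04%) over all samples. The paternal median log2 fold change was 0.14 with prefix S1 only, 0.52 with prefix S3 only, 0.13 with the Xist term and 0.16 to 0.40 without 1 replicate, lowest without S3-1 and highest without S1-6. The maternal median was 0.18 with prefix S1 only, 0.54 with prefix S3 only, 0.09 without T1-3 and T1-4, 0.15 with the Xist term, 0.20 over the 6 protein-coding maternal members (the paternal median was then 0.23), 0.13 with the members of mixed class added (the paternal median was then 0.26) and 0.13 to 0.46 without 1 replicate, lowest without T1-3. The order of both medians thus depended on the setting. The cause of these shifts was not tested. Adjusted p-values ran over all 20 alternative fits from 8.16e-06 to 0.153 for Ndn and from 1.93e-05 to 0.19 for Usp29. None of the 25 tested members outside the 8 described with every sample passed the adjusted p in any alternative fit, and 9 of them had 1 direction in all. No paired analysis was possible because the replicate numbers follow the order of deposit and no source used here ties a number in a sample name to a litter or batch.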
